A study of Mus musculus with 8 samples.

Results

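The TNF receptor superfamily was followed in the RNA of muscle stem cells (MuSCs) after loss of innervation, through 9 of its genes taken from the deposited count table by symbol: Tnfrsf12a, Tnfrsf1a, Tnfrsf1b, Tnfrsf10b, Tnfrsf11b, Tnfrsf19, Tnfrsf21, Tnfrsf23 and Fas. All 9 were found once each among 55487 genes, and 7 had enough counts to be tested. The data address how gene expression in MuSCs of the hind limb differs between muscle with and without its nerve. RNA was sequenced from 8 mice, 4 after DEN and 4 after Sham surgery, 21 days later, with 1 library per mouse. Both groups were male mice labelled C57BL/6 without any transgene, given in the paper as young C57BL/6 J mice of 2 to 6 months, and the labels of the single libraries give no age. In the DEN group a piece of the sciatic nerve was removed on 1 side, and in the Sham group the nerve was located and left uncut. The sort kept cells with α7-integrin on their surface and removed those with CD45, CD31, CD11b or Sca-1, a gate that can also hold glial cells carrying α7-integrin. DEN replicate 1 was left out of the comparison by the study as an outlier on an MDS plot, so values below compare DEN replicates 2, 3 and 4 with the 4 Sham replicates and give DEN replicate 1 apart.

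Receptors of this superfamily sit mostly in the plasma membrane and bind trimeric ligands of the TNF family. They have no enzyme activity of their own and act through proteins that dock on their tails. Receptors with a death domain can assemble adaptors such as Tradd and Fadd, which lead to caspase activation or to NF-kB signaling. Many receptors without one recruit Traf proteins directly. In skeletal muscle the ligand TWEAK, made by Tnfsf12, and its receptor Fn14, made by Tnfrsf12a, are known from work on muscle regeneration and on wasting of denervated fibers.

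Total counts ran from 28541080 to 31572843 in DEN replicates 2 to 4 and from 29048620 to 34145854 in Sham, and DEN replicate 1 had 26627173. Levels are given as CPM, which are a gene's reads per 1000000 reads of its library, scaled with TMM factors. MuSC markers were high in every library. The summed CPM of 11 of them was 8761 to 9772 in DEN and 8079 to 9194 in Sham. The MuSC gene Pax7 was at 142 ± 12.5 CPM in DEN (SD, n = 3) and 125 ± 20.8 in Sham (SD, n = 4), with an adjusted p of 0.388 in the edgeR test used throughout. Of the 11 markers 2 were called higher, Myf5 (log2 fold change 0.90, edgeR, adjusted p = 0.000609) and Cdh15 (0.57, adjusted p = 0.0106). Of all 17454 genes tested, 924 were called higher after DEN, which is 5.29%, and 929 lower, which is 5.32%. A gene was called where the adjusted p of edgeR's quasi-likelihood test, corrected over all genes by the method of Benjamini and Hochberg, was under 0.05. The median log2 fold change of all tested genes was -0.0010 on this scale.

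Tnfrsf12a lies on chromosome 17 (GRCm38, positions 23675445 to 23677468, minus strand) and Fas on chromosome 19 (34290666 to 34327772, plus strand). Their upstream sequences are shown because Tnfrsf12a had the largest rise among the members and Fas the next largest. Both are from RefSeq (GRCm38.p6), read 5′ to 3′ on the gene's strand. Capitals mark matches to the GC box (GGGCGG) or to the AP-1 motif (TGANTCA), on either strand. The first covers chr17:23677469-23677699, which ends at the base before the annotated gene, and the second chr19:34290409-34290658, which ends at the base before the RefSeq start.
Tnfrsf12a: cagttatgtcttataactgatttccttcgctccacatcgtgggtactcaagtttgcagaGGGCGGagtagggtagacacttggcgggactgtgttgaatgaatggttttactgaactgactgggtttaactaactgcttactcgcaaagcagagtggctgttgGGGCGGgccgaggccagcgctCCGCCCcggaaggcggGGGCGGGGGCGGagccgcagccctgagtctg
Fas: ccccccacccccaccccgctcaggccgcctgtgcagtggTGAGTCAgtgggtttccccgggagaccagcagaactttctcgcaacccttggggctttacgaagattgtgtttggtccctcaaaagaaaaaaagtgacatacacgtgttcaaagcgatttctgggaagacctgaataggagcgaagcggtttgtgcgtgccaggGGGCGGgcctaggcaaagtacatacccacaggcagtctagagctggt
The 5 capital matches of Tnfrsf12a are GC boxes, 2 of them adjoining. Fas has 1 AP-1 match, 211 to 205 bases before its start, and 1 GC box. Of the 9 members, 7 have a promoter in the RefSeq table. Over the 250 bases before the start, 6 of these 7 held a GC box, 1 held an AP-1 match and 1, Tnfrsf1b, a TEAD match (GGAATG). None of the 7 held a match to the kappa B motif or the CArG box. Among 32851 promoter windows of the same length, 32.74% held a GC box, 6.75% an AP-1 match, 12.64% a TEAD match, 5.0% a kappa B match and 1.47% a CArG box. In Tnfrsf1b 1 of the 2 TEAD matches shares its first and last base with a GC box on each side. A match is a run of letters and not a bound site. The other members are protein-coding genes on GRCm38 as well. Tnfrsf1a lies on chromosome 6 (125349362 to 125362484), Tnfrsf1b on chromosome 4 (145213463 to 145246870) and Tnfrsf21 on chromosome 17 (43016555 to 43089189). Tnfrsf10b (69767472 to 69784411) and Tnfrsf19 (60963875 to 61046490) are both on chromosome 14, Tnfrsf11b is on chromosome 15 (54250619 to 54278484) and Tnfrsf23 on chromosome 7 (143665809 to 143685872). Counts cover the exons of each gene.

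Of the 7 members tested, 2 were called higher after DEN, Tnfrsf12a and Tnfrsf1a, against 5.29% of all tested genes. None was called lower by edgeR, where the background was 5.32%. No member was lower at an unadjusted p under 0.05 either, nor with DESeq2. All 7 had a fold change above 0, with a median log2 fold change of 0.45. In 3 of the 7, Tnfrsf12a, Tnfrsf1a and Tnfrsf19, every DEN library was above every Sham library, against 11.5% of all tested genes with DEN higher and 23.2% with either group higher. At an unadjusted p under 0.05 there were 4 members higher, the same 3 and Fas. Such p-values were common over all genes. Tnfrsf19, at an unadjusted p of 0.033 (edgeR), ranked 3765 by p among the 17454 genes tested, both directions together. In sorted cell populations measured in bulk, a change in the share of cells that carry a transcript cannot be told apart from a change in RNA per cell.

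**Figure D1:**
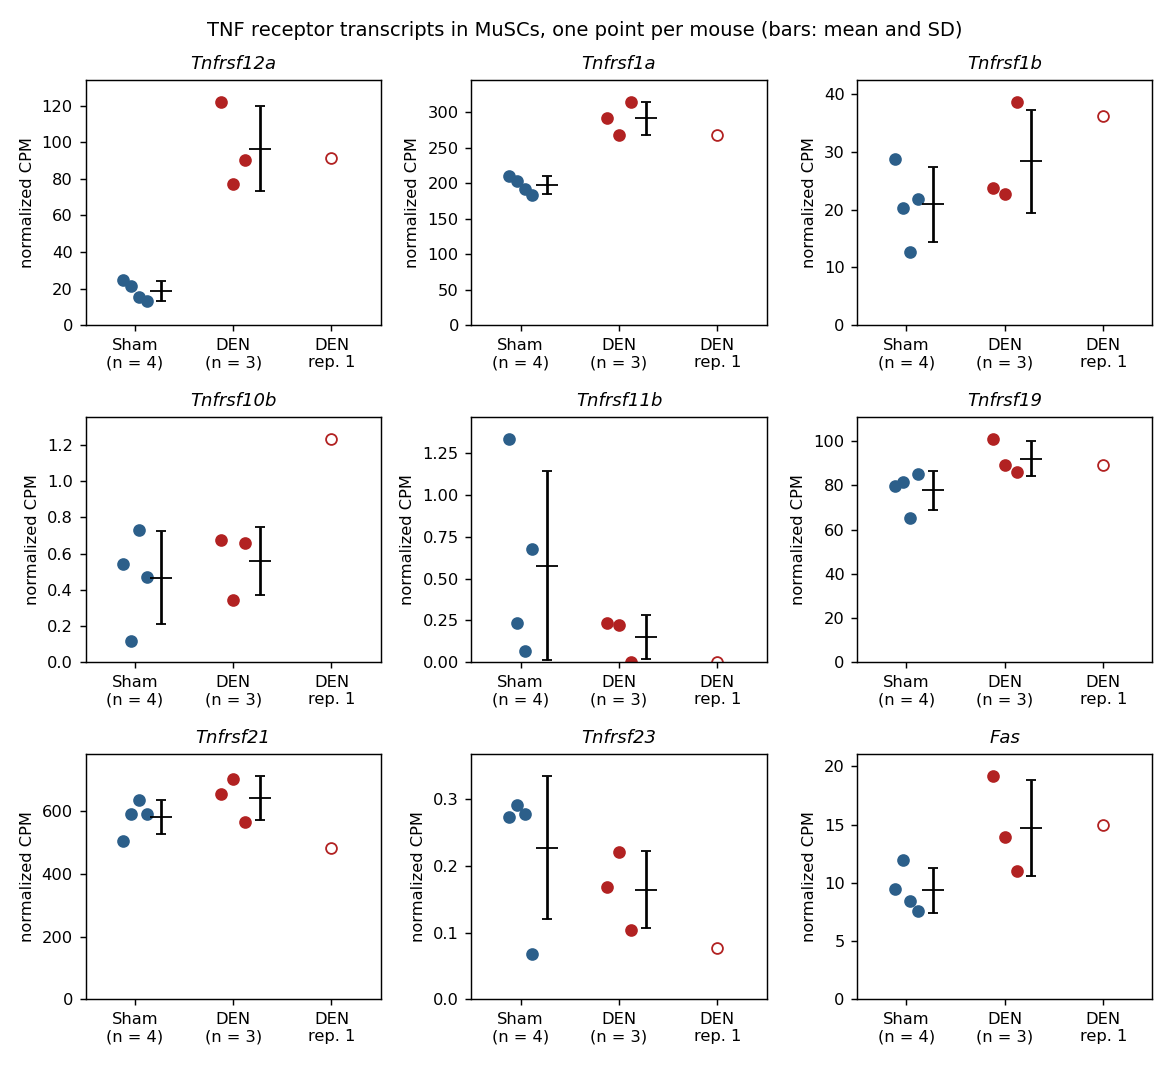
Normalized CPM of the 9 members, 1 panel per gene with its own axis from 0, by group. Filled points are mice, bars are the mean and SD of 4 Sham and 3 DEN libraries, and the open point is DEN replicate 1. Tnfrsf12a lies between 13.2 and 24.8 CPM in Sham and between 77.0 and 122.0 in DEN, while the groups overlap for Tnfrsf21, Tnfrsf1b and Fas.

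Tnfrsf12a encodes Fn14, a small receptor without a death domain that binds TWEAK and recruits Traf proteins. Its level was 122.0, 77.0 and 90.5 CPM in DEN replicates 2, 3 and 4, and 24.8, 21.5, 15.1 and 13.2 CPM in Sham replicates 1 to 4. The lowest DEN library was above the highest Sham library by more than the spread of either group. The means were 96.5 ± 23.1 CPM in DEN (SD, n = 3) and 18.7 ± 5.40 CPM in Sham (SD, n = 4). The log2 fold change was 2.38 with a standard error of 0.22 and a 95% interval from 1.90 to 2.85, a 5.19-fold rise (edgeR, adjusted p = 0.000151). These values rest on 2451 to 3622 reads per DEN library and 392 to 819 per Sham library. By the size of its rise Tnfrsf12a ranked at place 110 among the 924 genes called higher. DEN replicate 1 was at 91.4 CPM, inside the range of the other DEN libraries. The call held in every alternative tried and when any 1 of the 7 libraries was left out, with log2 fold changes from 2.18 without DEN replicate 2 to 2.54 without Sham replicate 1.

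Tnfrsf1a encodes TNFR1, the main receptor of soluble TNF, which has a death domain. It was at 292.8, 268.3 and 314.2 CPM in DEN replicates 2, 3 and 4, and at 211.0, 203.4, 192.5 and 183.0 CPM in Sham replicates 1 to 4. The groups did not overlap, and the spread within each was small. The means were 291.8 ± 23.0 CPM (SD, n = 3) and 197.5 ± 12.3 CPM (SD, n = 4), a log2 fold change of 0.57 with a standard error of 0.08 and a 1.49-fold rise (edgeR, adjusted p = 0.00137). DEN replicate 1 had 268.5 CPM, also above every Sham library. Tnfrsf1b, which encodes TNFR2, has no death domain and responds best to membrane TNF. Its levels were 23.8, 22.7 and 38.6 CPM in DEN and 28.7, 20.3, 12.7 and 21.9 CPM in Sham. The ranges overlapped, DEN replicate 4 being the only library of the 7 above Sham replicate 1. The log2 fold change was 0.45 with a 95% interval from -0.12 to 1.02 (edgeR, adjusted p = 0.318), so a difference was not detectable between these libraries. Without DEN replicate 4 it was 0.16 and without Sham replicate 3 it was 0.27.

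Fas encodes CD95, the death domain receptor of Fas ligand. It was at 19.1, 14.0 and 10.98 CPM in DEN replicates 2, 3 and 4, and at 9.48, 11.98, 8.40 and 7.56 CPM in Sham replicates 1 to 4. Sham replicate 2 was above DEN replicate 4, and otherwise the DEN libraries were higher. The means were 14.7 ± 4.13 CPM (SD, n = 3) and 9.36 ± 1.92 CPM (SD, n = 4). The log2 fold change of 0.66, with a standard error of 0.21 and a 95% interval from 0.19 to 1.12, had an adjusted p of 0.0730 in edgeR and was not called. It passed the threshold with DESeq2 (adjusted p = 0.0258) and with all 8 libraries in edgeR (0.0483). It also passed without DEN replicate 4, where the log2 fold change was 0.83 (edgeR, adjusted p = 0.0445), and without Sham replicate 2, where it was 0.80 (0.0480). Without DEN replicate 2 it was 0.43 with an adjusted p of 0.282, the highest of any alternative. DEN replicate 1 was at 14.98 CPM.

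Tnfrsf21 encodes DR6, a death domain receptor studied mostly in neurons, glia and lymphocytes. It had the highest CPM of the members, at 655.6, 703.1 and 564.8 in DEN and at 505.2, 591.2, 635.9 and 589.7 in Sham replicates 1 to 4. The ranges overlapped, and DEN replicate 1, at 481.9 CPM, was below every other library. The log2 fold change was 0.15 with a 95% interval from -0.07 to 0.37 (edgeR, adjusted p = 0.391), an interval that leaves out changes of the size seen for Tnfrsf1a. Tnfrsf19 encodes TROY, a receptor without a death domain that is known from the developing nervous system and from epithelial stem cells. It was at 101.0, 89.2 and 86.0 CPM in DEN and at 79.7, 81.4, 65.2 and 85.3 CPM in Sham. The lowest DEN library was less than 1 CPM above the highest Sham library. The log2 fold change was 0.25 with a standard error of 0.10 (edgeR, unadjusted p = 0.033, adjusted p = 0.153), and Tnfrsf19 was not called.

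The other 3 members were near the limit of detection. Tnfrsf10b, which encodes the death receptor of TRAIL in the mouse, had 20, 11 and 19 reads in DEN and 18, 4, 21 and 14 in Sham. The groups overlapped, with a log2 fold change of 0.28 and a 95% interval from -0.98 to 1.53 (edgeR, adjusted p = 0.822), and the sign turned without Sham replicate 2, to -0.053. Tnfrsf11b encodes osteoprotegerin, a secreted decoy receptor for RANKL that has no membrane anchor. It had 7, 7 and 0 reads in DEN and 44, 8, 2 and 20 in Sham, and did not pass the filter on low counts. The count of 0 in DEN replicate 4 allows up to 0.104 CPM, taking 3 reads as the limit and counting error alone. Without the filter its log2 fold change was -1.88 (edgeR, adjusted p = 0.357). Tnfrsf23 encodes a mouse decoy receptor for TRAIL that lacks a death domain. It had 5, 7 and 3 reads in DEN and 9, 10, 8 and 2 in Sham, also below the filter, and a log2 fold change of -0.45 without it (edgeR, adjusted p = 0.802). Its counts are uncertain in a further way. Of its stretches of 75 bases, the read length, 13.7% also occur in another gene, mostly the neighboring Tnfrsf22, and 164 of its 3962 exonic bases overlap E230032D23Rik on the other strand, which the counting without strand cannot separate. No other member has exons that overlap another gene by position. Of the 75-base stretches of Tnfrsf10b, 2.53% also occur in other genes, a further limit on its few reads. For Tnfrsf21 the share is 0.07%, and the remaining members share none.

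Levels of different genes were compared as deposited RPKM, that is, reads relative to the library's depth and to the length of the gene's exons. In Sham the order was Tnfrsf21 at 141 RPKM, Tnfrsf1a at 76.3, Tnfrsf19 at 16.5, Tnfrsf12a at 9.68, Tnfrsf1b at 5.49 and Fas at 4.55. The ranges of Tnfrsf12a and Tnfrsf1b overlapped, as did those of Tnfrsf1b and Fas. The remaining 3 were at or below 0.206 RPKM, and each overlapped its neighbor. After DEN the order was Tnfrsf21 at 157 RPKM, Tnfrsf1a at 113, Tnfrsf12a at 50.2, Tnfrsf19 at 19.5, Tnfrsf1b at 7.48 and Fas at 7.16. Tnfrsf12a thus stood above Tnfrsf19 in each of the 3 DEN libraries and below it in each of the 4 Sham libraries. Among the 6 receptors, only Tnfrsf1b and Fas overlapped after DEN.

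**Figure D2:**
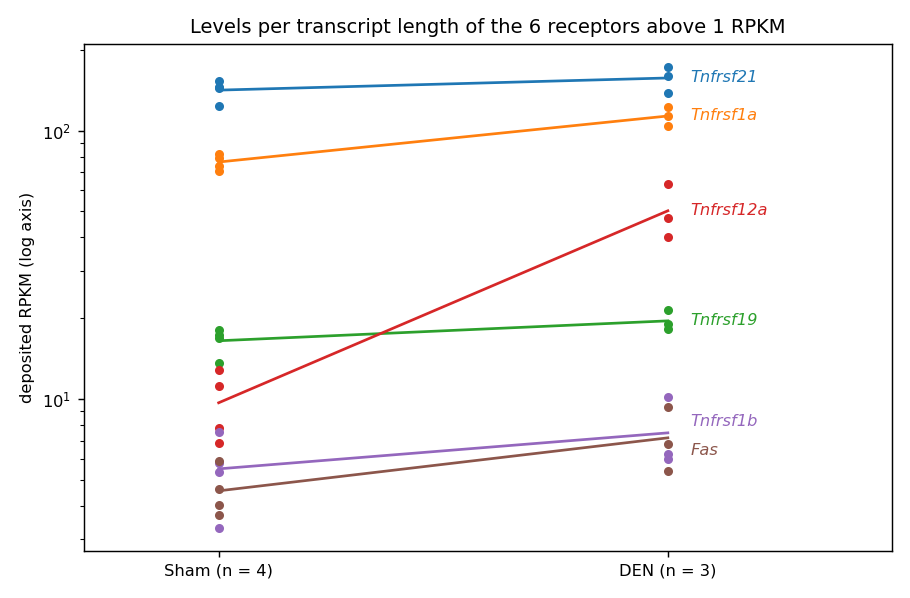
Deposited RPKM of the 6 members above 1 RPKM, on a log axis, in 4 Sham and 3 DEN libraries. Points are mice and lines join the group means. The line of Tnfrsf12a, from 9.68 to 50.2 RPKM, crosses that of Tnfrsf19, and the order of the others is the same in both groups.

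The receptor makeup was described as each gene's share of the summed RPKM of 28 TNF receptors, the 9 members and 19 others. The sum was 422 ± 18.4 RPKM in DEN (SD, n = 3) and 309 ± 8.75 in Sham (SD, n = 4), and 349 in DEN replicate 1. Tnfrsf12a made up 9.61% to 14.3% of it in DEN, 13.2% in DEN replicate 1 and 2.26% to 4.28% in Sham. Tnfrsf21 was the largest part in all 8 libraries, at 34.1% to 41.3% in DEN and 41.0% to 49.4% in Sham, ranges that just overlap. Tnfrsf1a took 25.0% to 30.1% in DEN and 23.3% to 27.2% in Sham. Ltbr, among the 19 others, took 12.7% to 13.6% in DEN, inside the range of Tnfrsf12a, and 15.3% to 15.8% in Sham, above it. The level of Ltbr itself did not fall, at 128 to 132 CPM in DEN and 108 to 118 in Sham. Its log2 fold change was 0.21 (edgeR, adjusted p = 0.0627, not called), while the sum it is a share of was larger in DEN. For each RPKM of Tnfrsf1a there was 0.443 ± 0.09998 RPKM of Tnfrsf12a in DEN (SD, n = 3) and 0.125 ± 0.0289 in Sham (SD, n = 4). The 2 sets of ratios did not overlap. The 9 members together held 84.0% of the sum in DEN and 82.3% in Sham.

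Of the 19 other TNF receptors, 11 could be tested and 2 were called higher, Ngfr and Tnfrsf9, against 5.29% of all tested genes, with a median log2 fold change of 0.21. Ngfr encodes the p75 neurotrophin receptor, which has a death domain. It was at 22.1, 25.8 and 15.4 CPM in DEN and at 6.33, 6.02, 4.30 and 3.68 CPM in Sham, without overlap. The log2 fold change was 2.06 with a standard error of 0.22 (edgeR, adjusted p = 0.000382). DEN replicate 1 had 11.1 CPM of Ngfr, also above Sham. Tnfrsf9 encodes 4-1BB, a co-stimulatory receptor of T cells, and was at 0.411 ± 0.0378 CPM in DEN (SD, n = 3) and 0.0928 ± 0.0631 in Sham (SD, n = 4). With 12, 12 and 13 reads in DEN and 6, 3, 1 and 2 in Sham, it passed the low-count filter only through the DEN libraries. Its call, at an adjusted p of 0.0477 in edgeR, rests on few reads and on a gene admitted through its high group. It was lost with DESeq2 (0.0881) and when any of the 7 libraries but Sham replicate 1 was left out (0.0922 to 0.149). None of the 11 was called lower by edgeR or by DESeq2. At an unadjusted p under 0.05, which was common over all genes, 4 were higher, Ltbr, Tnfrsf9, Ngfr and Relt, and 2 lower, Tnfrsf22 and Tnfrsf25. The lymphocyte receptors Tnfrsf8 and Tnfrsf13c had 0 reads in all 8 libraries, which allows up to 0.0872 to 0.116 CPM per library.

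**Figure D3:**
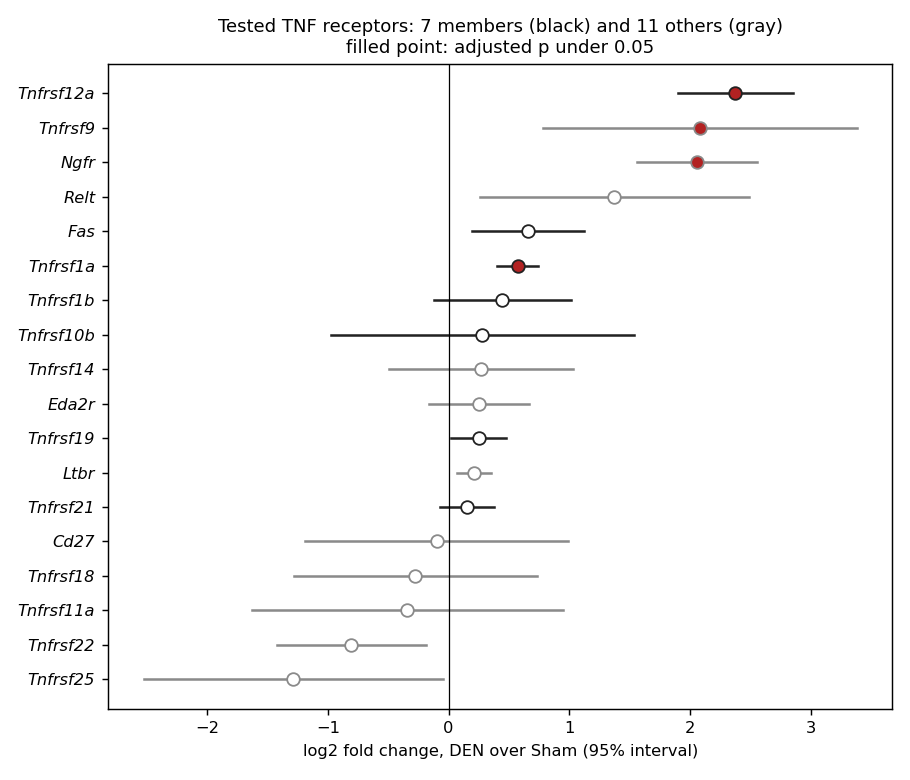
Log2 fold change between DEN (n = 3) and Sham (n = 4) for the 18 TNF receptors tested, with 95% intervals. Black lines are the 7 members, gray lines 11 other receptors, and filled points have an edgeR adjusted p under 0.05. Tnfrsf12a at 2.38, Ngfr at 2.06, Tnfrsf9 at 2.08 and Tnfrsf1a at 0.57 are the filled points, and the intervals are wide for receptors with few reads.

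Few ligands of the family were found in the sorted cells. Of 18 ligand genes, 6 could be tested, and Tnfsf4, Cd40lg, Fasl and Tnfsf14 had 0 reads in all 8 libraries. Tnfsf12, the gene of TWEAK and chosen here after its values were seen as the ligand of the Tnfrsf12a product, was at 27.7 ± 4.25 CPM in DEN (SD, n = 3) and 27.7 ± 6.25 in Sham (SD, n = 4). Its log2 fold change was 0.01 with a 95% interval from -0.37 to 0.39 (edgeR, adjusted p = 0.983). Reads of Tnfsf12 are uncertain because 48.25% of its exonic bases belong to an overlapping gene as well. Tnf itself was listed at 0 in 6 of the 7 compared libraries, and Fasl in all of them. No ligand was called higher by edgeR or DESeq2, and none was higher at an unadjusted p under 0.05. Eda and Tnfsf8 were called lower. Eda, which encodes the ectodysplasin that acts in the development of hair and teeth, was at 20.9 ± 2.72 CPM in DEN (SD, n = 3) and 29.5 ± 1.89 in Sham (SD, n = 4), and fell by 0.49 on the log2 scale (edgeR, adjusted p = 0.0230). The call of Eda was lost without DEN replicate 3 (0.0754) or Sham replicate 2 (0.0626). Tnfsf8, the ligand of CD30, was at 0 to 0.0943 CPM in DEN and 0.182 to 0.675 CPM in Sham (edgeR, adjusted p = 0.0301), and was lost without DEN replicate 2 (0.0998) or DEN replicate 4 (0.109). With 6, 17, 16 and 20 reads in Sham and 0, 3 and 1 in DEN, Tnfsf8 passed the low-count filter only through Sham. Without Sham replicate 2, 3 or 4, or with all 8 libraries, it fell under that filter and could not be tested.

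Downstream of the receptors, 2 of 24 genes for Traf proteins and their ubiquitin and kinase partners were called higher, Traf2 and Traf5, with a median log2 fold change of 0.09. Over all tested genes the share called higher by edgeR was 5.29%, so this count is near the background of edgeR. DESeq2 called 6 of the 24 higher, where it called 1286 of all 17454 tested genes higher. Traf2 and Traf5 bind receptor tails and help to start NF-kB signaling. Traf2 was at 93.0 ± 5.37 CPM in DEN (SD, n = 3) and 75.8 ± 4.46 in Sham (SD, n = 4), a log2 fold change of 0.30 (edgeR, adjusted p = 0.0312). Traf5 was at 17.2 ± 1.01 and 12.4 ± 1.52 CPM, a log2 fold change of 0.48 (edgeR, adjusted p = 0.0374). Both calls lie close to the threshold. Without DEN replicate 2, 3 or 4 or Sham replicate 3 or 4 neither was called, at adjusted p of 0.0511 to 0.114, and Traf5 was not called without Sham replicate 2 either (0.0521) or with all 8 libraries (0.136). None of the 24 was called lower by edgeR. DESeq2 called 2 lower, where it called 1370 of all 17454 tested genes lower, so this count is near its background. At an unadjusted p under 0.05, 9 were higher and 4 lower, and such p-values were common over all genes. Traf3, lower at an unadjusted p of 0.044 (edgeR), ranked 4229 by p among all tested genes, both directions together. Of 20 genes of death signaling, 19 were tested, 3 were higher and 1 lower, with a median of 0.10. Over all tested genes 5.29% were higher and 5.32% lower, so the count lower is at the background. Mcl1, an inhibitor of mitochondrial cell death, was at 520 ± 32.7 CPM in DEN (SD, n = 3) and 309 ± 12.7 in Sham (SD, n = 4), a log2 fold change of 0.76 (edgeR, adjusted p = 0.000162). Bcl2, another such inhibitor, rose by 0.69 on the log2 scale (adjusted p = 0.000968), and Bcl2l1, which encodes the inhibitor Bcl-xL, fell by 0.50 (adjusted p = 0.00556). Casp8, the caspase that death receptors activate, was at 15.8 ± 1.94 and 10.3 ± 1.68 CPM (log2 fold change 0.62, edgeR, adjusted p = 0.0307). Leaving out DEN replicate 2 (0.115) or 4 (0.0930), or Sham replicate 3 (0.0564) or 4 (0.0559), ended the call of Casp8.

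Of 24 genes known to respond to NF-kB, 22 were tested and 12 were called higher, against 5.29% of all tested genes, with a median log2 fold change of 0.57. None was called lower by edgeR or DESeq2 or at an unadjusted p under 0.05. The list was chosen with earlier results of these libraries known and shares Tnfaip3, Birc3 and Traf1 with the Traf list, none of which was called. Ier3, an early response gene, was at 18.8, 13.0 and 14.3 CPM in DEN and at 5.48, 4.30, 3.40 and 4.02 CPM in Sham, a log2 fold change of 1.84 (edgeR, adjusted p = 0.000301). Nfkbiz, an atypical nuclear inhibitor of the NF-kB family, was at 12.7 ± 0.872 CPM in DEN (SD, n = 3) and 4.996 ± 0.961 in Sham (SD, n = 4), a log2 fold change of 1.35 (edgeR, adjusted p = 0.000704). Relb, an NF-kB subunit of the noncanonical branch, rose by 0.57 on the log2 scale (adjusted p = 0.00216). Ccl7, a chemokine for monocytes, rose by 2.82 (adjusted p = 0.00269) from 0.385 to 2.73 CPM. None of these 4 overlapped between groups. Without DEN replicate 4 the count of genes called higher was 7.

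**Figure D4:**
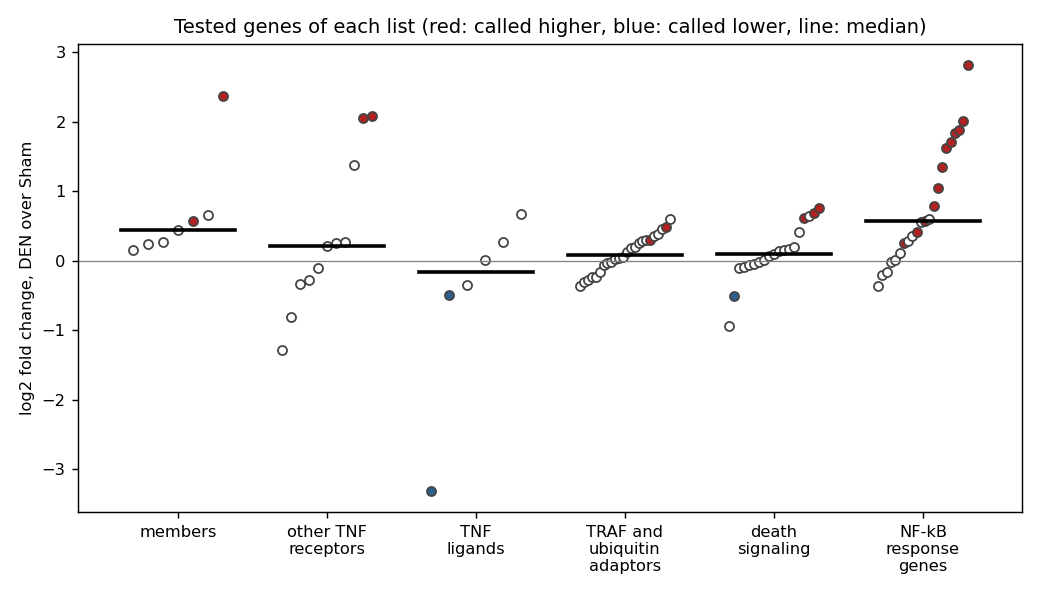
Log2 fold change between DEN (n = 3) and Sham (n = 4) for every tested gene of 6 lists, each point a gene and each bar the median of the list. Red points were called higher and blue points lower by edgeR. Medians run from -0.17 for the ligands to 0.57 for the NF-kB response genes, where 12 of 22 points are red.

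The genes with the profile most like that of Tnfrsf12a were named by the mean absolute difference of log2 CPM, centered on the Sham mean, over the 8 libraries. They were taken from the tested genes, with predicted genes, RIKEN clones and genes named only by an accession left out. Nearest was Ccn2, a secreted matrix protein and YAP target, with a mean difference of 0.107. Ahr, the aryl hydrocarbon receptor, followed at 0.200, Tmem121b, a membrane protein gene, at 0.208, Ier2, an immediate early gene, at 0.225 and Tpbg, which encodes a membrane glycoprotein, at 0.243. Ccn2 rose from 153 to 769 CPM, a log2 fold change of 2.34. The others rose by 2.24 to 2.71 on the log2 scale. Rises of about this size follow from choosing genes by likeness to Tnfrsf12a in the same libraries. They are therefore given without p-values. DEN replicate 2 was the highest DEN library for Tnfrsf12a, Ccn2, Ahr, Tmem121b and Tpbg, and DEN replicate 4 for Ier2. This likeness describes 8 libraries in 2 groups and carries no test.

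**Figure D5:**
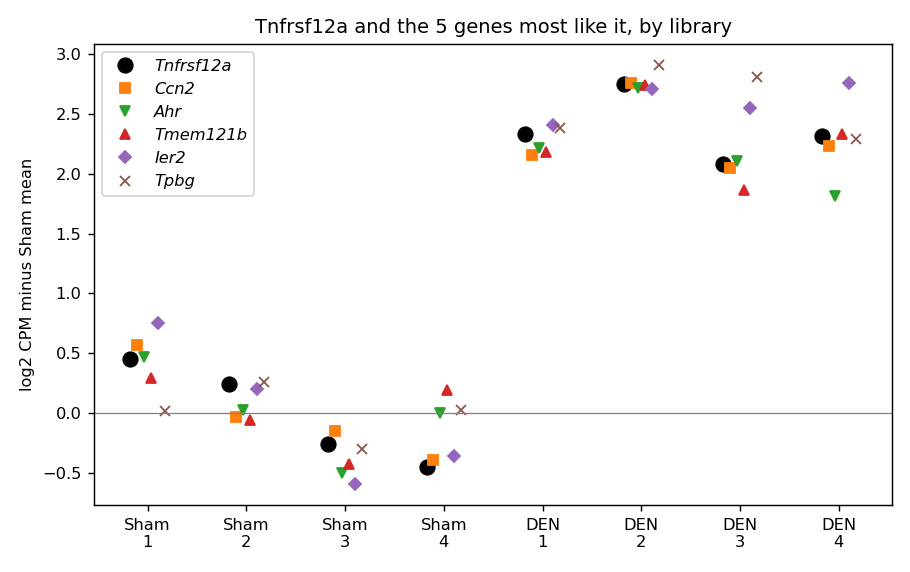
Log2 CPM minus the Sham mean for Tnfrsf12a (black) and the 5 genes most like it, predicted genes and clones left out, in each of the 8 libraries. Each point is 1 gene in 1 mouse. All 6 genes lie between 1.81 and 2.91 in the 4 DEN libraries, DEN replicate 1 included, and between -0.60 and 0.75 in Sham.

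Some markers of other cells were also called by edgeR, where 5.29% of all tested genes were called higher and 5.32% lower. The sort removed cells carrying CD45, CD11b, CD31 or Sca-1, the surface proteins of leukocytes, endothelium and fibro-adipogenic progenitors, and held no marker against myofiber fragments, glia, smooth muscle or pericytes. Of 8 myofiber markers 6 were called higher, and their summed CPM was 741 to 796 in DEN, 963 in DEN replicate 1 and 228 to 372 in Sham, none being at 0. Their part in the rises of Tnfrsf12a and Tnfrsf1a was not tested. Of 12 markers of glia and Schwann cells 7 were higher, Sox10, Ngfr, Erbb3, Foxd3, Cdh19, Gfap and Egr2. Ngfr is also the TNF receptor described above, so its rise is counted in both places. S100b and Mbp, 2 of the 12, were lower, and the median log2 fold change was 0.94 over the 12 markers. Their sum was 485 to 709 CPM in DEN and 592 to 775 in Sham, and the part of glia in the rise of Ngfr was not tested. Of 14 macrophage and myeloid markers 7 could be tested and 1, C1qb, was higher. Their sum was 127 CPM in DEN replicate 2, 6.74 to 7.92 in the other DEN libraries, 17.1 to 53.5 in Sham and 4.24 in DEN replicate 1. DEN replicate 2 was also the highest library for Tnfrsf12a and Fas. Without it Tnfrsf12a had a log2 fold change of 2.18 (edgeR, adjusted p = 0.000702) and Fas one of 0.43 (adjusted p = 0.282). Leaving out a library changes more than its myeloid markers, and the part of myeloid cells in these values was not tested. Of 11 lymphocyte markers 4 were tested and Gzmb was higher. Cd3d, Cd3g, Cd8a and Nkg7 were at 0 in all libraries, and the sums were 10.5 to 22.9 CPM in DEN and 3.38 to 5.87 in Sham. The neutrophil genes Ly6g, Mpo, Elane and Retnlg were at 0 throughout, with S100a8 the 1 of 7 neutrophil markers that was tested and higher, and sums of 0.346 to 1.28 CPM in DEN and 0 in Sham. S100a8 thus passed the low-count filter only through the DEN libraries. None of 8 endothelial markers tested was called by edgeR, and their sums were 160 to 188 CPM in DEN and 174 to 224 in Sham. Markers of connective tissue cells were abundant. Those of fibro-adipogenic progenitors summed to 2223 to 2463 CPM in DEN and 2968 to 4048 in Sham, with Col1a1 higher and Col3a1 and Dcn lower among 8 tested. Those of smooth muscle and pericytes summed to 10683 to 11191 CPM in DEN and 10233 to 13157 in Sham, with Kcnj8 higher and Acta2 and Myh11 lower among 10. No marker of these 2 lists was at 0 in all libraries. Their part in the receptor levels was not tested.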

How the data were processed

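RNA of sorted MuSCs was made into full-length cDNA and sequenced as single reads of 75 bases. Counts per gene were made and deposited by the authors with the tools of the submitters' processing notes: bcl2fastq 2.20.0.422, cutadapt 2.1, TopHat2 2.1.0 on GRCm38 and featureCounts 1.6.5 without strand. The deposited RPKM values are the authors' counts divided by depth and gene length, and for 9 of 9 members the length equals the merged exons of GENCODE M21. The deposited RPM values, which are rescaled counts, were not used.

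Counts were filtered (filterByExpr, minimum count 10, minimum total 15), scaled by TMM and tested with edgeR 4.0.16 by quasi-likelihood in R 4.3.3, DEN replicates 2 to 4 (n = 3) against Sham (n = 4), with Benjamini-Hochberg adjustment over 17454 genes. DESeq2 1.42.0 was an alternative, as were other scalings, filters, all 8 libraries, the replicate number as a term and leaving out each library. Counts were simulated in a single draw for 3 DEN against 4 Sham libraries and 17454 genes, with 200 changed. Of genes changed by a log2 of 1, 93% were recovered, and 100% of those changed by 2, with 9 false among 202 calls. Every simulated gene had the same biological coefficient of variation, 0.161. The shares recovered therefore do not carry over to genes that vary more, such as receptors with few reads and large standard errors. Libraries of a group differed by 16.5 to 47.0 times counting noise, so none was the same library deposited again. Whether 2 preparations came from 1 sample is not shown by this.

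The members and gene lists were chosen with earlier results of these data known. Named genes are the members, up to 4 called genes of smallest adjusted p per list, Pax7 and the 5 genes most like Tnfrsf12a (log2 of CPM plus 0.1). Genes and markers outside this rule were chosen after their values were seen. Exon overlaps are from GENCODE M21. Positions are 1-based.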

Additional observations from a re-analysis of the deposited data

Results flagged for a closer look

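DEN replicate 1, which the study left out and which entered the tests only where all 8 libraries are named, had levels of 6 of the 9 members above every Sham library, all 6 among the 7 tested. Of all 17454 tested genes, 32.2% were above every Sham library in DEN replicate 1 and 31.4% below. Below every Sham library were 2 members, Tnfrsf21 at 481.9 CPM against at least 505.2 and Tnfrsf11b at 0 against at least 0.0694. It held 91.4 CPM of Tnfrsf12a where the highest Sham library had 24.8, and 268.5 CPM of Tnfrsf1a where the highest had 211.0. Tnfrsf1b was at 36.2 CPM against at most 28.7, Tnfrsf19 at 89.1 against at most 85.3, Fas at 14.98 against at most 11.98 and Tnfrsf10b at 1.23 against at most 0.729. Tnfrsf10b was also above the other DEN libraries. Tnfrsf23 in Sham replicate 4, at 0.0675 CPM or 2 reads, was far below the other 3 Sham libraries, at 0.273 to 0.291 CPM, by Dixon's ratio (0.918, above the 95% critical value for 4 libraries). Chance gives such a value in about 1 of 20 groups. Both groups of each of the 9 genes were looked at, with DEN replicate 1 included in DEN.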

How the results depend on the processing

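Tnfrsf12a and Tnfrsf1a were called higher in all 15 alternatives, with log2 fold changes of 2.18 to 2.55 and 0.52 to 0.63, and 2 or 3 members were called in each, the third being Fas. Fas had a log2 fold change of 0.66 with DESeq2 (adjusted p = 0.0258), 0.66 with all 8 libraries (0.0483) and 0.66 with the replicate number as a block (0.0364), and 0.43 to 0.83 when each library was left out. Tnfrsf10b turned from 0.28 to -0.053 without Sham replicate 2, where leaving out each library gave -0.053 to 0.57, and was 0.64 with all 8 libraries. Other TNF receptors called higher were 1 without the low-count filter, with a minimum count of 50, with all 8 libraries and with the block. Ligands called lower were 1 with a minimum count of 50 and 1 with all 8 libraries. Traf genes called higher were 6 with DESeq2, 1 without the filter and 0 with the block, and those called lower were 2 with DESeq2, 1 with a minimum count of 50 and 1 with all 8 libraries. Leaving out each library gave 575 to 900 genes higher and 523 to 914 lower over all genes, the lowest of both without DEN replicate 2. It gave 1 to 3 other receptors higher, 0 to 2 ligands lower, 0 to 3 Traf genes higher and 7 to 11 NF-kB response genes higher. The cause of these shifts was not tested. Of 20 other named genes, 14 kept call and direction in every alternative that could test them, the exceptions being Tnfrsf9, Eda, Tnfsf8, Traf2, Traf5 and Casp8. With a minimum count of 50, Tnfrsf9, Tnfsf8 and Tnfrsf10b gave no value. At the usual minimum the filter also removed Tnfrsf9 with all 8 libraries, and Tnfsf8 with all 8 libraries and without Sham replicate 2, 3 or 4.

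The replicate numbers were not shown to pair the mice. Deviations of same-numbered DEN and Sham libraries correlated at 0.0145, 0.0162 and -0.107. With the block, 649 genes were higher and 686 lower, which is not read as a weaker effect. Other scalings moved the median of all genes by less than 0.01 on the log2 scale. Members with about 20 reads or fewer in most libraries, Tnfrsf10b, Tnfrsf11b and Tnfrsf23, are limited by depth.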
